A study of Mus musculus with 5 samples.

Results

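Fatty acid binding proteins (FABPs) were examined in mouse neural stem cells (NSCs) and in STO fibroblasts, through the mRNA levels of Fabp3, Fabp4, Fabp5 and Fabp7. The genes were given as a list and taken up by their RefSeq identifiers, which gave 4 of the 24844 genes in the files, in 6 of 40201 transcript rows. Earlier results of these data were known when the list was made, and the genes were selected on their FPKM in these NSC and STO samples, so their levels are described without a test. RNA-seq was available for 2 NSC and 3 STO samples. NSCs were primary cells of the embryonic cortex at passages 5 to 8, grown without feeder cells on poly-ornithine and laminin in neural basal medium with EGF, bFGF, heparin and the B27 supplement. STO is an established embryo-derived line that resists thioguanine and ouabain, and it was maintained in DMEM with 10% fetal bovine serum for more than 30 passages. Both were labelled as strain C57BL/6, although the paper describes STO as derived from embryos of SIM mice. Cell type, source strain, culture medium and time in culture cannot be told apart in this design. The labels do not say that replicates came from separate cultures, so p-values measure only the spread between these samples.

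The cells carried the markers of their labels. All 5 NSC markers were lower in STO, among them Nes, an intermediate filament of neural progenitors, at 173 ± 5.37 FPKM in NSCs (SD, n = 2) and 0.0515 ± 0.018 FPKM in STO (SD, n = 3). Of 7 fibroblast markers, 6 were tested and all 6 were higher in STO. Among them was the collagen gene Col1a1, at 0.173 ± 0.032 FPKM in NSCs and 254 ± 27.7 FPKM in STO. Over all 12278 genes tested, 17.1% were higher and 21.3% lower in STO. FPKM is fragments per kilobase of transcript scaled to the mapped fragments of the sample, so levels are per length and can be set side by side between genes. Fragment numbers worked out from the width of each interval in the files summed to 2.06e7 and 2.23e7 in the NSC samples and to 1.52e7, 1.71e7 and 2.20e7 in the STO samples. A listed 0 in these files may not be a measured absence, and the cause of such values was not tested. Elob, a subunit of the elongin complex that every cell uses, was listed at 0 in all 3 STO samples and at 185 and 217 FPKM in NSCs, a gene chosen after its values were seen.

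FABPs are small cytoplasmic proteins that fold into a barrel around a single long-chain fatty acid and carry it between membranes, enzymes and nuclear receptors. Each cell type uses its own set. Fabp7, brain lipid binding protein, is a classical marker of radial glia, the stem cells of the embryonic cortex, and favours omega-3 fatty acids such as docosahexaenoic acid. Fabp5, first described in skin, is widespread and is also found in neural progenitors. Fabp4 belongs to adipocytes, macrophages and some endothelia, and Fabp3 to heart and skeletal muscle and to mature neurons.

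Exon 2 is shown for Fabp7 and Fabp3, the pair with the highest coding identity among the 4 genes and with the highest and the lowest level in NSCs. The reference sequences are from mm9, plus strand, 5′ to 3′, at chr10:57505312-57505484 for Fabp7 and chr4:129989535-129989707 for Fabp3. Capitals mark the 55 of 173 bases that differ between the genes.
Fabp7 exon 2: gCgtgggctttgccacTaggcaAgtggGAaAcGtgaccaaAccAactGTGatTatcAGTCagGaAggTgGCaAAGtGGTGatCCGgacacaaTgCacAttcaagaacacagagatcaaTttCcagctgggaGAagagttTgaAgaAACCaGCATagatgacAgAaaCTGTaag
Fabp3 exon 2: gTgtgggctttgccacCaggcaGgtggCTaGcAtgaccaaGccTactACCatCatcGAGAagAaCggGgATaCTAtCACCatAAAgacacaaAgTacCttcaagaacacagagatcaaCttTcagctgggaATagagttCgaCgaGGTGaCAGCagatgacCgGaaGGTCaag
The other 118 bases were the same. The 250 bases before the Fabp7 start, from RefSeq on GRCm38.p6 at chr10:57784673-57784922, plus strand, are shown because candidate regulators of the gene were measured too. Capitals mark TTGGC, the core site bound by nuclear factor I (NFI) proteins.
Fabp7 promoter: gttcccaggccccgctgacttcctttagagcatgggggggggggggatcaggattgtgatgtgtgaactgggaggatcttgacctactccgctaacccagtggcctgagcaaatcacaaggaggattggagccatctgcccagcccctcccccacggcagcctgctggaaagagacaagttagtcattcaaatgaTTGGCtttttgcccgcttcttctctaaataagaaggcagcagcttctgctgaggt
TTGGC occurred once, at position -55 counted from the start, and 41.5% of the 32851 promoters in the RefSeq table held it on either strand. The octamer ATGCAAAT of POU factors, the RBPJ site GTGGGAA and the TATA box TATAAA did not occur in this window, and 1.60%, 5.42% and 12.4% of promoters held them. The same window of Fabp3 held none of the 4 motifs. Promoter sequences of Fabp4 and Fabp5 were not used here.

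The genes shared one architecture. All 4 had 4 exons in the mm9 annotation, with an exon 2 of 173 bases and an exon 3 of 102 bases. Of 10 FABP genes, 9 had an exon of 173 bases, while all 5 genes of retinoid-binding proteins, the other branch of the family, had one of 179 bases. Coding sequences were 402 bases for Fabp3, 399 for Fabp4, 408 for Fabp5 and 399 for Fabp7. Identity over aligned coding bases ran from 56.8% between Fabp5 and Fabp7 to 66.7% between Fabp3 and Fabp7. Fabp4 was closer to Pmp2, a FABP of peripheral myelin, at 71.4%, than to Fabp3 at 65.3%, Fabp5 at 60.9% or Fabp7 at 59.9%.

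**Figure D1:**
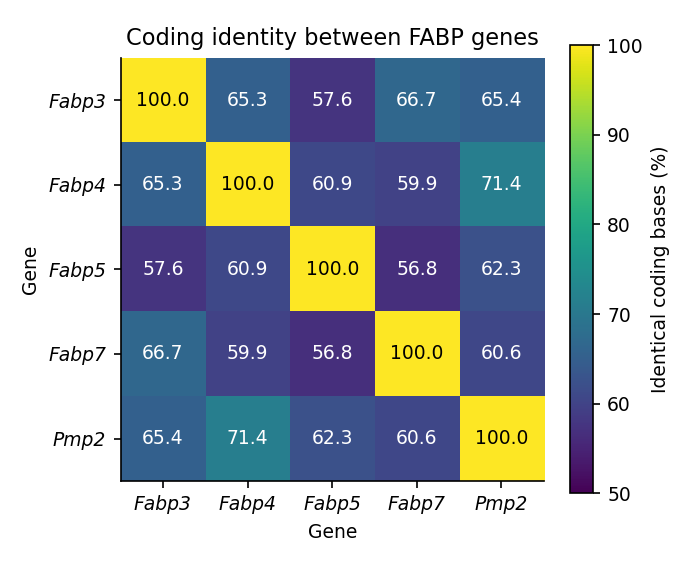
Percent of identical coding bases between pairs of 4 FABP genes and Pmp2, in mm9, as a colour and a printed value. The lowest pair is Fabp5 and Fabp7 at 56.8% and the highest is Fabp4 and Pmp2 at 71.4%.

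Near-identical copies elsewhere in the genome were found for only Fabp3 and Fabp5, counting matches of at least 80% identity over at least 100 bases. Fabp5 had 6 matches elsewhere, 5 of them over most of the transcript, with identities of 89.2% to 98.7% for these. Fabp3 had 3 matches, and the best was 99.1% identical. Fabp4 and Fabp7 had 0 such matches. Reads of Fabp3 and Fabp5 could be shared with these copies, so their levels are less certain in this respect alone. The level of Fabp4 rests on few fragments and that of Fabp7 in STO is a listed 0, as given below.

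Fabp7 was among the most abundant mRNAs of NSCs and was listed at 0 in STO. The gene (NM_021272) lies at chr10:57504687-57508256 in mm9, on the plus strand. Its level was 2783 and 3041 FPKM in the NSC samples, and 0 FPKM in each of the 3 STO samples. Both NSC values lay far above all 3 STO values. The deposited intervals were narrow, with half-widths of 0.781% and 0.714% of the value. Fabp7 ranked 3 among all genes in both NSC samples, after Eef1a1, a translation elongation factor, and Tmsb10, an actin-binding thymosin. No fold is given against a group listed at 0. In such bulk samples, fewer cells of a type and less RNA per cell cannot be told apart. Of the 736 genes with a mean of at least 100 FPKM in NSCs, 17 were listed at 0 in every STO sample, and Fabp7 had the highest NSC mean of these at 2912 FPKM. The next were Igfbp2, a binding protein of insulin-like growth factors, at 1368 FPKM and Olig1, a transcription factor of glial progenitors, at 1036 FPKM.

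Fabp5, also on chromosome 3, was expressed in both cell types and was higher in NSCs. It stood at 938 and 894 FPKM in the NSC samples and at 73.8, 65.2 and 76.5 FPKM in the STO samples. The groups did not overlap, and the lowest NSC value lay above every STO value. The means were 916 ± 30.8 FPKM (SD, n = 2) and 71.8 ± 5.92 FPKM (SD, n = 3), a ratio of 12.8. The interval was wide for this level in NSCs, as given below. On the log2(FPKM + 1) scale the means were 9.84 ± 0.048 and 6.18 ± 0.12. Fabp5 ranked 60 and 63 in the NSC samples and 959, 1086 and 955 in the STO samples. Of its 3 RefSeq transcripts, NM_010634 carried the whole level, and NM_001272097 and NM_001272098 were listed at 0 in every sample.

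The interval of Fabp5 was wide for its level in NSCs. Its half-width was 4.30% and 4.29% of the value there, which implied 2168 and 2175 fragments, or 2.31 and 2.43 fragments per FPKM. In STO the same gene had 936, 943 and 1201 implied fragments, or 12.7, 14.5 and 15.7 per FPKM. Fabp7 had 23.6 and 25.8 per FPKM in NSCs. Implied fragments assume that the interval holds counting error alone, and the check of this, given below, did not cover Fabp5. For Fabp5 they thus describe the width of the interval and are not a count of fragments. They give no second estimate of its difference between the cell types. The ratio, ranks and shares of Fabp5 rest on FPKM, and how far its FPKM in NSCs holds was not tested. The part of the near-identical copies of Fabp5 in these values was not tested.

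Fabp4 (NM_024406, chromosome 3) was close to the limit of detection in both cell types. It was listed at 0.187 and 0 FPKM in NSCs and at 0.391, 0.284 and 0.598 FPKM in STO. These values rest on 4 and 0 implied fragments in NSCs and on 6, 5 and 14 in STO. The STO values all lay above both NSC values. Values of the 2 cell types did not overlap for 3 of the 4 genes, Fabp4, Fabp5 and Fabp7, which also held for 78.6% of the 17646 genes above 0 in at least 1 sample. Fabp4 did not reach the mean of 1 FPKM in either cell type that was asked of genes entering the fit, while Fabp5 reached it in both cell types and Fabp7 in NSCs alone.

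Fabp3 (NM_010174, mm9 chr4:129985839-129992707, plus strand) was listed at 0 FPKM in all 5 samples, as were 7198 genes, 29.0% of all. Its 3′ end overlaps the locus of Zcchc17, a zinc finger gene, by 81 bases, and its best copy elsewhere covers most of the transcript. Whether either bears on the listed 0 was not tested.

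**Figure D2:**
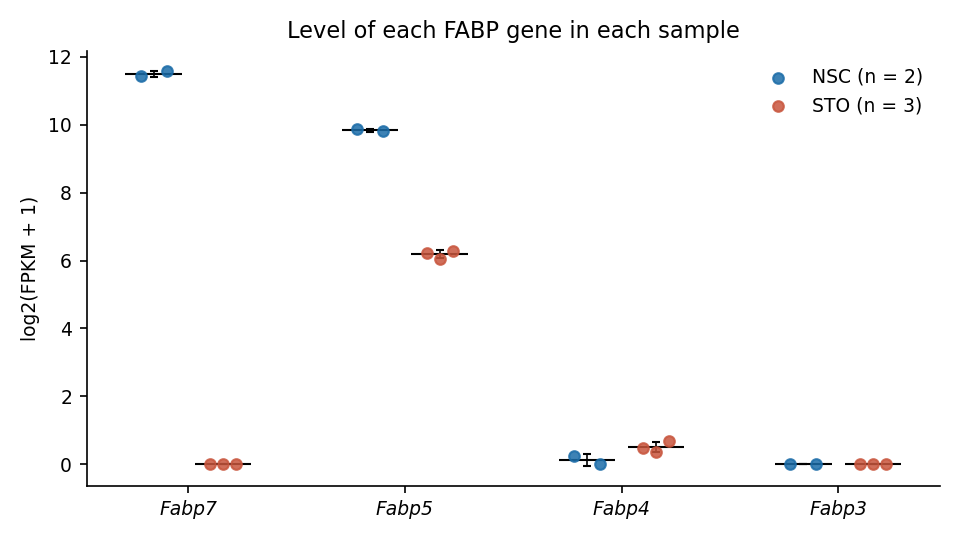
Level of each FABP gene as log2(FPKM + 1), with 1 point per sample, the mean as a line and the SD as an error bar, for NSC (n = 2) and STO (n = 3). Fabp7 and Fabp5 stand at 11.51 and 9.84 in NSCs, Fabp5 alone is well above 0 in STO at 6.18, and Fabp4 and Fabp3 lie at or near 0 in both.

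The order of the levels differed between the cell types. In NSCs it was Fabp7, Fabp5, Fabp4 and Fabp3, although Fabp4 and Fabp3 were both listed at 0 in replicate 2. In STO it was Fabp5 and then Fabp4, with Fabp3 and Fabp7 both listed at 0. The ratio of Fabp7 to Fabp5 was 2.97 and 3.40 in the NSC samples. Fabp7 made up 74.8% and 77.3% of the summed FPKM of 10 FABP genes in NSCs, and Fabp5 made up 25.2% and 22.7%. In STO, Fabp5 made up 99.4%, 99.4% and 99.1% of that sum. The 10 genes together held 0.840% and 0.882% of all FPKM in NSCs and 0.0187%, 0.0170% and 0.0193% in STO.

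**Figure D3:**
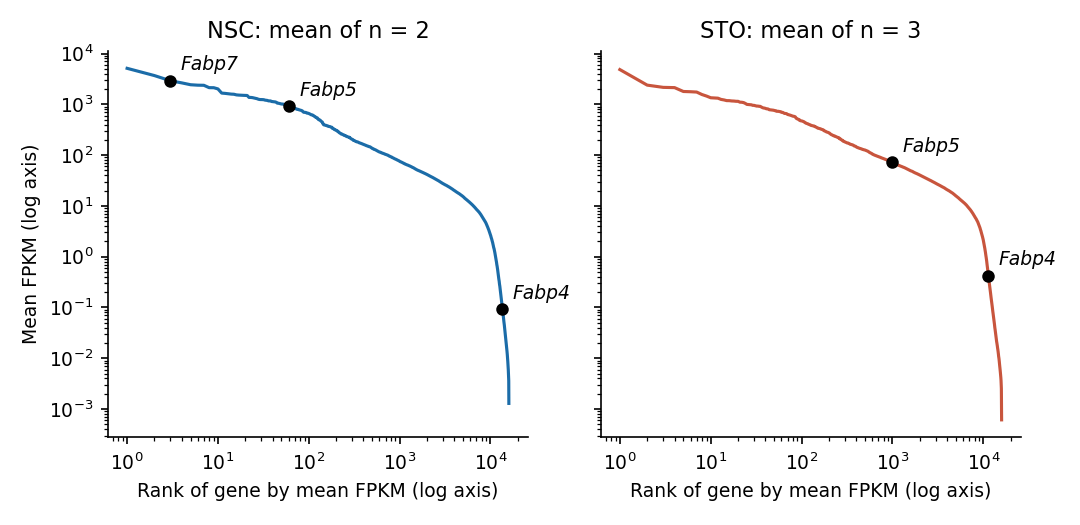
Mean FPKM of every gene above 0 against its rank, both on log axes, for NSC (n = 2) and STO (n = 3), with the FABP genes as points. Fabp7 sits at the upper left in NSCs at 2912 FPKM and is missing from the STO curve because it is listed at 0, as is Fabp3 from both.

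The other lipid-binding proteins named here were below 1 FPKM in every sample. Pmp2 was listed at 0.280 and 0.277 FPKM in NSCs and at 0.0650, 0.0567 and 0.0853 FPKM in STO. Crabp2, a carrier of retinoic acid, averaged 0.121 ± 0.079 FPKM in NSCs and 0.501 ± 0.054 FPKM in STO. Crabp1, its close relative, averaged 0.0957 and 0.0215 FPKM. Fabp1 of liver, Fabp9 of testis and Fabp12 were listed at 0 in all samples, Fabp2 of intestine was above 0 in STO replicate 2 alone at 0.0802 FPKM, and the bile acid carrier Fabp6 in NSC replicate 1 alone at 0.0623 FPKM. Rbp2 and Rbp7 stayed below the limit of 1 FPKM too.

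The genes with the most similar profile over the 5 samples were found by Euclidean distance in log2(FPKM + 1). For Fabp7 the nearest was Ckb, the brain-type creatine kinase, at a distance of 0.69, with 2691 and 2599 FPKM in NSCs and 0.330, 0.209 and 0.335 FPKM in STO. Igfbp2 and Olig1 followed at 1.54 and 2.11. For Fabp5 the nearest was Ptn, the growth factor pleiotrophin, at 0.78, with 1136 and 1251 FPKM in NSCs and 85.7, 91.8 and 83.4 FPKM in STO. Tubb2a, a tubulin, and Serpine2, a protease inhibitor, followed at 0.88 and 0.95. For Fabp4 the nearest were Terc, Pnp2 and Gm14393 at 0.15 to 0.17, all of them below 1 FPKM in every sample.

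Genes within 100 kb were read to see how far the levels of the FABP genes extended to their neighbours. The nearest gene to Fabp7, on chromosome 10, was Smpdl3a, a phosphodiesterase gene with its locus 6.09 kb away. Smpdl3a stood at 11.0 and 11.1 FPKM in NSCs and was listed at 0 in all 3 STO samples. Pkib, an inhibitor of protein kinase A, lay 43.8 kb away and was listed at 0.112 and 0.121 FPKM in NSCs and at 0 in STO. Fabp5 and Fabp4 lie on the same stretch of chromosome 3 with Pmp2, Fabp9 and Fabp12, which are 20.5, 7.06 and 35.6 kb from Fabp4, and none of these 3 reached 1 FPKM. Gm9833, 71.7 kb from Fabp5, averaged 1.66 ± 0.50 and 1.33 ± 0.10 FPKM and was not called. Fabp3, listed at 0, had expressed neighbours on chromosome 4. Zcchc17 fell from 25.2 to 9.13 FPKM and Snrnp40, a splicing factor, from 49.6 to 24.2 FPKM in STO, whereas Serinc2 was at 1.69 and 1.11 FPKM in NSCs and near 0 in STO, and Ldc1 was listed at 0.

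**Figure D4:**
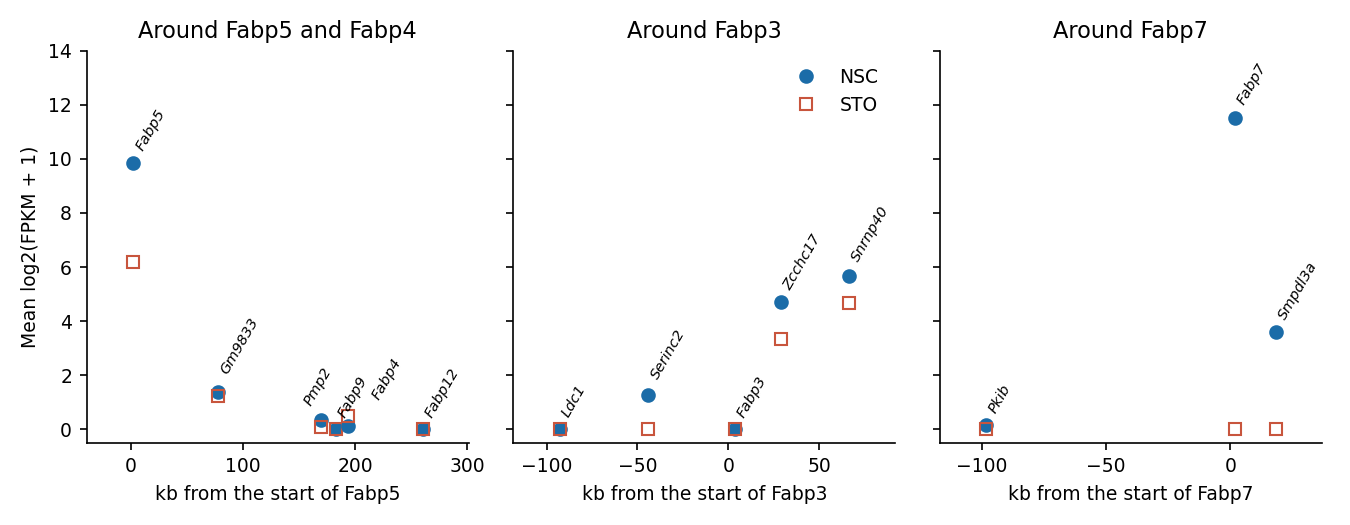
Mean log2(FPKM + 1) of the FABP genes and the genes within 100 kb of them in NSC (n = 2, filled circles) and STO (n = 3, open squares), against the distance of the gene's middle from the start of Fabp5, Fabp3 or Fabp7 in kb. Fabp7 and Smpdl3a are above 0 in NSCs and at 0 in STO, Fabp5 is high in both cell types, and the genes around Fabp4 lie near 0.

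The pathway around the FABPs was read from lists of 117 genes for uptake, activation, sensing, storage, synthesis and oxidation of fatty acids. A call needed an adjusted p under 0.05 (limma, Benjamini-Hochberg over 12278 genes) and at least a 2-fold difference. Of the 117 genes, 87 were tested, 18 were higher in STO, 23 were lower and 46 were not called, so 20.7% were higher and 26.4% lower. Over all 12278 genes, 17.1% were higher and 21.3% lower, 38.4% in either direction, against 47.1% of the 87. The median difference, STO minus NSC in log2(FPKM + 1), was -0.051 for the 87 genes and -0.023 for all, and both became positive, at 0.083 and 0.14, after rescaling to TPM, where 20 of the 87 genes were higher and 20 lower. The 46 genes that were not called included most of the oxidation list.

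Genes of uptake and activation were called in both directions, beside 17.1% higher and 21.3% lower over all 12278 genes. Of 10 uptake genes, 7 were tested, 1 was higher (14.3%) and 2 were lower (28.6%) in STO. Mfsd2a, the transporter that brings docosahexaenoic acid into brain, averaged 24.2 ± 2.30 FPKM in NSCs and 3.63 ± 0.19 FPKM in STO. The fatty acid transporter Slc27a1 likewise fell from 34.4 ± 0.062 to 8.83 ± 0.83 FPKM. Lpl, which frees fatty acids from lipoproteins, rose from 3.52 ± 0.28 to 15.3 ± 0.21 FPKM. Of 12 genes that make, bind or cleave acyl-CoA, 11 were tested, 3 were higher (27.3%) and 4 were lower (36.4%). Acsbg1, an acyl-CoA synthetase of brain, had the largest difference on the list, with 175 ± 2.25 FPKM in NSCs and 0.227 ± 0.059 FPKM in STO (log2 difference -7.16, adjusted p = 4.6e-09, limma). Acsl6, a neural synthetase that prefers docosahexaenoic acid, averaged 13.9 and 0.0267 FPKM. Acsl4, the synthetase for arachidonic acid, and Acsl1 moved the other way, from 8.60 to 48.8 FPKM and from 2.66 to 15.0 FPKM. Dbi, the acyl-CoA binding protein, averaged 712 ± 65.4 FPKM in NSCs and 176 ± 12.3 FPKM in STO.

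FABPs can deliver their ligands to nuclear receptors, which were listed with adipogenic factors. Of 16 receptors and adipogenic factors, 12 were tested, 4 were higher, 1 was lower and 7 were not called, beside 17.1% higher and 21.3% lower over all 12278 genes. Ppard, the receptor paired with Fabp5, averaged 19.3 ± 1.57 FPKM in NSCs and 23.1 ± 0.61 FPKM in STO and was not called. Pparg, the adipocyte receptor that drives Fabp4, averaged 0.446 ± 0.16 FPKM in NSCs, was listed at 0 in STO and was below the limit for testing. Rxra rose from 4.24 to 21.2 FPKM and Rarg, a receptor of retinoic acid, from 3.40 to 48.4 FPKM in STO, while Rarb fell from 9.82 to 0.189 FPKM. Cebpb and Cebpd, early factors of fat cell formation that are also induced by serum and cytokines, rose from 6.97 to 176 FPKM and from 10.7 to 101 FPKM. Of 9 PPAR targets, 5 were tested, 3 were higher and 2 were lower. Angptl4, an inhibitor of lipoprotein lipase, rose from 0.147 to 31.1 FPKM, Plin2, a droplet coat protein, from 12.0 to 59.7 FPKM, and Cpt1a, which admits fatty acids to mitochondria, from 16.5 to 45.3 FPKM. Ucp2, a mitochondrial carrier, fell from 6.84 to 0.00818 FPKM.

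Storage genes were called in both directions, and of the synthesis genes more were lower than higher in STO. Over all 12278 genes, 17.1% were higher and 21.3% lower. Of 20 genes of lipid droplets and lipolysis, 15 were tested, 4 were higher (26.7%) and 5 were lower (33.3%). The coat protein Plin3 rose from 0.296 to 34.4 FPKM and the acyltransferase Agpat2 from 0.815 to 10.6 FPKM. The lipase Mgll fell from 18.6 to 0.0317 FPKM and Lpin1, which makes diacylglycerol, from 23.3 to 4.12 FPKM. G0s2, an inhibitor of lipolysis, was at 19.4 FPKM in NSCs and listed at 0 in STO. Of 18 synthesis genes, 16 were tested, 3 were higher (18.75%) and 8 were lower (50%), with a median of -0.84. Scd2, the main desaturase of brain, fell from 969 ± 43.3 to 320 ± 25.2 FPKM, and Scd1 from 146 ± 7.85 to 51.0 ± 2.86 FPKM. Fads2, a desaturase of polyunsaturated fatty acids, fell from 163 to 76.8 FPKM, and Elovl2, an elongase on the way to docosahexaenoic acid, was at 12.1 FPKM in NSCs and listed at 0 in STO. Fads3 rose from 2.02 to 35.0 FPKM and Acacb from 0.0327 to 1.98 FPKM. Acly and Fads1 averaged 111 and 136 FPKM in NSCs and 87.5 and 88.1 FPKM in STO and were not called. Of 25 oxidation genes, 23 were tested, 2 were higher (Cpt1a and Cpt2), 2 were lower, among them Hsd17b4 of peroxisomes, and 19 were not called. That was 8.70% higher and 8.70% lower.

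**Figure D5:**
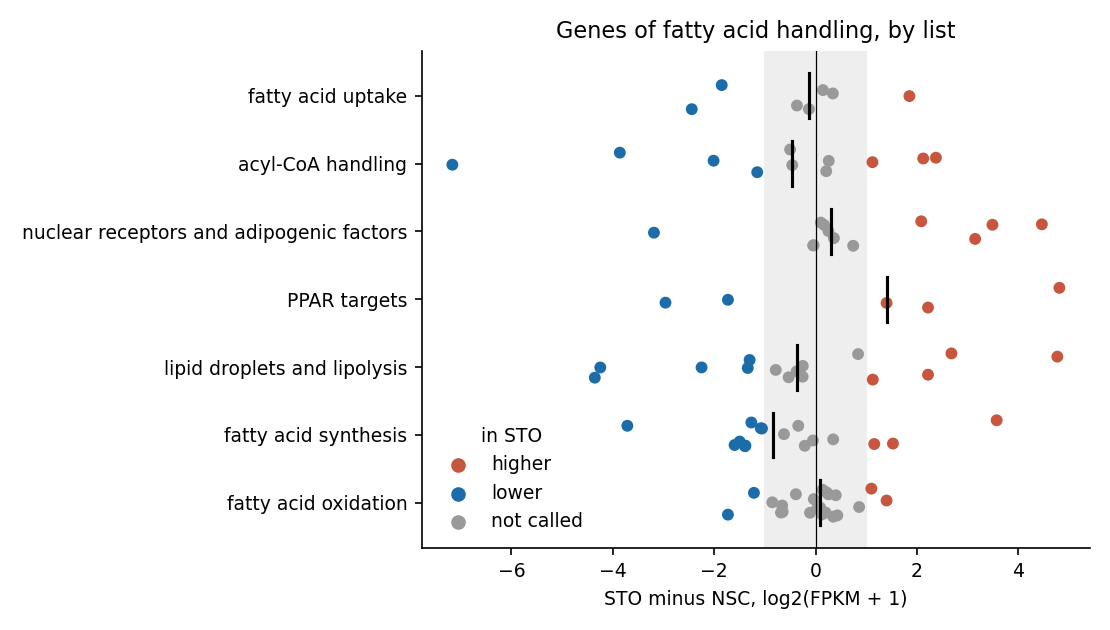
STO minus NSC difference in log2(FPKM + 1) for each tested gene of 7 lists of fatty acid handling, with the list's median as a black bar and the range under 2-fold in grey. Genes higher in STO are red, lower are blue and not called are grey, and most oxidation genes (19 of 23) lie in the grey range while 8 of 16 synthesis genes are lower.

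Of the genes listed for the regulation of Fabp7, more were lower than higher in STO. They included transcription factors and, for the Notch pathway, the receptor Notch1 and its targets Hes1 and Hes5, which were all lower. All 12 were tested, 2 were higher, 8 were lower and 2 were not called, with a median of -1.76, while over all 12278 genes 17.1% were higher and 21.3% lower, with a median of -0.023. The POU factor Pou3f3 averaged 104 ± 17.0 FPKM in NSCs and 0.00482 FPKM in STO, Pou3f1 averaged 31.6 and 3.29 FPKM, and Pou3f2 was at 7.57 FPKM in NSCs and listed at 0 in STO. Pax6, a factor of radial glia, was at 5.13 FPKM in NSCs and listed at 0 in STO. In the Notch pathway, the receptor Notch1 fell from 27.7 to 12.2 FPKM and its targets Hes1 and Hes5 from 20.1 to 3.01 FPKM and from 22.7 to 0.0101 FPKM, whereas Rbpj, the DNA-binding partner of Notch, rose from 5.42 ± 0.46 to 62.8 ± 5.70 FPKM. The NFI genes did not move as 1 group. Nfia fell from 18.0 to 7.82 FPKM and Nfic rose from 12.4 to 54.0 FPKM, while Nfib at 56.0 and 29.6 FPKM and Nfix at 60.8 and 83.5 FPKM were not called.

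Markers of the cell types in which each FABP is known were read beside these levels. Of 9 markers of radial glia and astrocytes, 7 were lower in STO and 2 were not called, beside 21.3% lower over all 12278 genes. The glutamate transporter Slc1a3 averaged 247 ± 2.86 and 25.6 ± 0.98 FPKM, and Aldh1l1, a folate enzyme of astrocytes, 46.4 and 0.172 FPKM. Vim, an intermediate filament, averaged 2125 and 1454 FPKM and was not called. The part of these markers in the level of Fabp7 was not tested. Of 7 neuron markers, 5 were tested and 4 were lower in STO. Map2, a microtubule protein, averaged 101 FPKM in NSCs and 4.31 FPKM in STO. Dcx, Snap25 and Syt1, the others that were lower, averaged only 4.71, 3.13 and 1.26 FPKM in NSCs. Tubb3 averaged 8.69 and 8.30 FPKM and was not called, and Rbfox3 and Stmn2 stayed below 1 FPKM. None of 6 adipocyte markers reached the limit for testing, and Adipoq, Cfd and Lep were listed at 0 in all samples. The 6 together summed to 0.218 to 0.464 FPKM in NSCs and 0.0665 to 0.278 FPKM in STO. Endothelial markers summed to 0.706 to 1.04 FPKM in NSCs and 0.341 to 0.604 FPKM in STO. Macrophage markers summed to 2.18 to 3.10 and 1.09 to 1.26 FPKM, most of it Cd68, which averaged 2.62 and 0.886 FPKM. Csf1r, Ptprc, Aif1 and Cx3cr1 had the higher mean in STO, of at most 0.175 FPKM, and Adgre1 was listed at 0. Muscle markers summed to 0.652 to 1.01 and 0.864 to 1.40 FPKM.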

How the data were processed

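By the study's methods, stranded mRNA libraries (KAPA) were read as paired ends of 150 bases, trimmed, aligned to mm9 with HISAT2 (version given as 4.8.2) and quantified with Cufflinks 2.2.1 on RefSeq transcripts. The authors deposited FPKM per transcript with the bounds of its interval. Depth was divided out, so the number of fragments was implied from the interval, taken as 2 Poisson SDs. This was checked on values of 2 to 20 implied fragments, for genes with a single transcript row and no overlapping locus. Of these values, 86.8% to 91.2% were within 0.05 of a whole number. The check covered neither Fabp5, with several rows, nor Fabp3, whose locus overlaps Zcchc17. All rows of the 4 genes had the status OK.

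FPKM was summed by gene symbol. A RefSeq table for GRCm38.p6, used for names only, matched 39946 transcripts (99.4%). log2(FPKM + 1) was fitted with limma 3.58.1 (R 4.3.3, trend) for 12278 genes with a mean of at least 1 FPKM in NSC or STO, and p-values were adjusted by Benjamini-Hochberg; the added 1 understates changes of low genes. The script was tested on simulated data. Replicates correlated at 0.994 (NSC) and 0.995 to 0.996 (STO). Gene models and copies (blastn 2.17.0) were read from mm9. The members and lists were chosen with earlier results of these data known. The genes named in the text were taken from the 4 genes, up to 5 called genes with the largest difference per list, list genes at 100 FPKM or more, other lipid-binding proteins and regulators, markers, the 3 nearest profiles and genes within 100 kb. Some genes that the rule names are not reported here. Alternatives were the pseudocount, filter, scaling, trend, minimum fold, replicate block and leaving out each replicate.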

Additional observations from a re-analysis of the deposited data

How the results depend on the processing

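The difference of Fabp7, STO minus NSC in log2(FPKM + 1), was -11.51 and rests on a listed 0 and on the value added. It was -14.83 with 0.1 added, -12.68 after rescaling to TPM and -11.27 after quantile normalization. The same settings gave 1.59, 0.78 and 0.64 for Fabp4 (0.38 as reported), and TPM and quantile normalization gave -3.49 and -3.39 for Fabp5 (-3.66 as reported). Leaving out each replicate in turn gave -11.57 to -11.44 for Fabp7, -3.70 to -3.59 for Fabp5, 0.26 to 0.50 for Fabp4 and 0 for Fabp3. With no minimum fold, 5147 genes were higher and 5370 lower in STO, and 33 and 41 of the fatty acid genes. Leaving out replicates gave 2089 to 2153 higher and 2570 to 2655 lower genes, and 18 and 22 to 23 fatty acid genes. Rescaling to TPM moved the median of all genes from -0.023 to 0.14, and quantile normalization moved it to 0.026. Without genes listed at 0 in a whole cell type, a choice made after seeing the data, 18 and 21 fatty acid genes were higher and lower. The replicate numbers are only numbers by the labels. Deviations of same-numbered samples correlated at 0.0029 and 0.064, and those of different-numbered samples at -0.0645 to 0.0588. With 2 NSC samples, the deviations of NSC replicates 1 and 2 mirror each other, so these values cannot show whether same-numbered samples are paired. With the replicate block, 2111 genes were higher and 2642 lower, and 18 and 23 fatty acid genes. The differences of Fabp4, Fabp5 and Fabp7 kept their sign under these settings. Fabp4, at 14 implied fragments or fewer per sample, is at the limit of what this depth can show.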
